A study of Mus musculus with 15 samples.

Results

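The comparison sets 3 mutant forms of the transcription factor Twist1, pooled, against the wild-type protein in the same cells. The arrays were chosen by their titles: 9 arrays of cells with a mutant form (AQA, DQD and F191G, with 3 arrays each) and 3 arrays of cells with wild-type Twist1 (WT), 12 of the 15 arrays of the series. The other 3 arrays hold cells with an empty vector (VEC). The pooled value is the mean of the 3 mutant group means, so that each form counts equally.

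All arrays measured total RNA from Myc-CaP cells, a mouse prostate cancer line from a tumour driven by a Myc transgene. According to the labels, the cells were transfected, selected and harvested at confluence, and nothing in the labels describes the promoter of the constructs or the number of clones. F191G is a phenylalanine-to-glycine change in the Twist box, the conserved stretch at the carboxyl end of the protein. The labels do not explain AQA and DQD. Replicates carry the letters A, B and C, without a statement that they came from separate cultures, so the p-values describe only how far these arrays scatter, part of which may be technical.

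Twist1 is a basic helix-loop-helix factor. Such factors pair through their helix-loop-helix, usually with an E protein such as Tcf4, and bind E-boxes, short motifs of the form CANNTG, through their basic region. The Twist box makes contact with partner proteins. In embryos Twist1 acts in mesoderm and neural crest, and in carcinoma cells it is known for driving epithelial-mesenchymal transition (EMT), in which epithelial cells lose junctions and gain motility. The genes of DNA replication and mitosis, which the results below turn on, are driven in cycling cells by E2F factors, B-Myb and FoxM1. They are low in resting cells, where the DREAM complex represses them.

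One WT array stood apart. WT replicate A correlated with the other 14 arrays at 0.975 to 0.992 over all genes, whereas the 11 WT and mutant arrays without it correlated with each other at 0.992 to 0.998. The counts over all genes and over the gene lists are therefore also given without WT replicate A, and calls that named genes lost then are stated. Twist1 itself measured 6.77, 6.85 and 6.75 on the log2 scale in WT replicates A, B and C, and 6.41 to 6.97 with a median of 6.75 in the 9 mutant arrays. The groups overlapped, with a difference of -0.05 (SE 0.122, adjusted p 0.782). Levels in VEC were 6.13 to 6.71, and the pooled mutants lay 0.31 above VEC (adjusted p 0.191), so the mutant and VEC arrays overlapped, while all 3 WT arrays lay above the highest VEC array. Among the markers of prostate epithelium, Krt8 averaged 8.27 in WT and 7.80 in the mutants and Hoxb13 7.48 and 7.61, and neither passed the test (adjusted p 0.115 and 0.492). Epcam was dim in both, at 5.03 and 4.97. No detection calls were used, so a level near 5 or below may be background.

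The whole table was fitted with limma, with group and the labelled array batch as terms, and genes with a Benjamini-Hochberg adjusted p below 0.05 over all 19297 genes are called. Of these genes, 4399 (22.8%) differed between the pooled mutants and WT, 2191 (11.4%) higher in the mutants and 2208 (11.4%) lower. Changes of at least 2-fold numbered 82 upward and 105 downward, against 0 and 36 without WT replicate A. At any size of change, the counts without WT replicate A were 394 higher (2.04%) and 420 lower (2.18%), of which 390 and 415 were also called with it. The differences of the genes called with all arrays were smaller without that array, with a median ratio of 0.706. In batch B alone 248 genes were called, and in batch A alone 0 (5204 at an unadjusted p below 0.05). With each array centred on its median the split moved to 3247 higher and 1058 lower, since the median difference over all genes moved from -0.05 to 0.03. In 1385 genes (7.18%) all 9 mutant arrays lay above all 3 WT arrays, and in 1528 (7.92%) all lay below. Set against WT replicates B and C only, these counts were 1514 (7.85%) and 1804 (9.35%).

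What the mutants lacked relative to wild-type was led by secreted proteins. Ogn, which encodes the small leucine-rich proteoglycan osteoglycin, measured 10.62, 6.37 and 9.30 in WT replicates A, B and C, against 2.97 to 6.07 (median 4.0) in the mutants. No mutant array reached the lowest WT array, and AQA replicate B was the highest mutant array, just below WT replicate B. The pooled difference was -4.80 (SE 0.757, adjusted p 0.00777), 27.8-fold lower, and it was -3.89 without WT replicate A (adjusted p 0.0268). Angptl7, an angiopoietin-like secreted factor, gave 11.20, 7.35 and 10.31 in WT and 4.02 to 6.77 (median 4.69) in the mutants. Again every mutant array lay below every WT array, and the difference was -4.78 (SE 0.695, adjusted p 0.00777), or 27.4-fold. The mutant medians of both genes lay below 5, where a level may be background. The 27.8-fold and 27.4-fold values may therefore not measure the true size of the fall. Igfbp5, a secreted protein that binds insulin-like growth factors, fell from 12.02, 9.27 and 10.77 to between 6.62 and 9.26 (median 7.92), a difference of -2.85 (SE 0.495, adjusted p 0.00864). Its highest mutant value, in AQA replicate B, was nearly that of WT replicate B. Against the empty vector the pooled mutants differed by -0.56 in Ogn, -0.35 in Angptl7 and -0.40 in Igfbp5, none of them called (adjusted p 0.681 to 0.806).

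**Figure D1:**
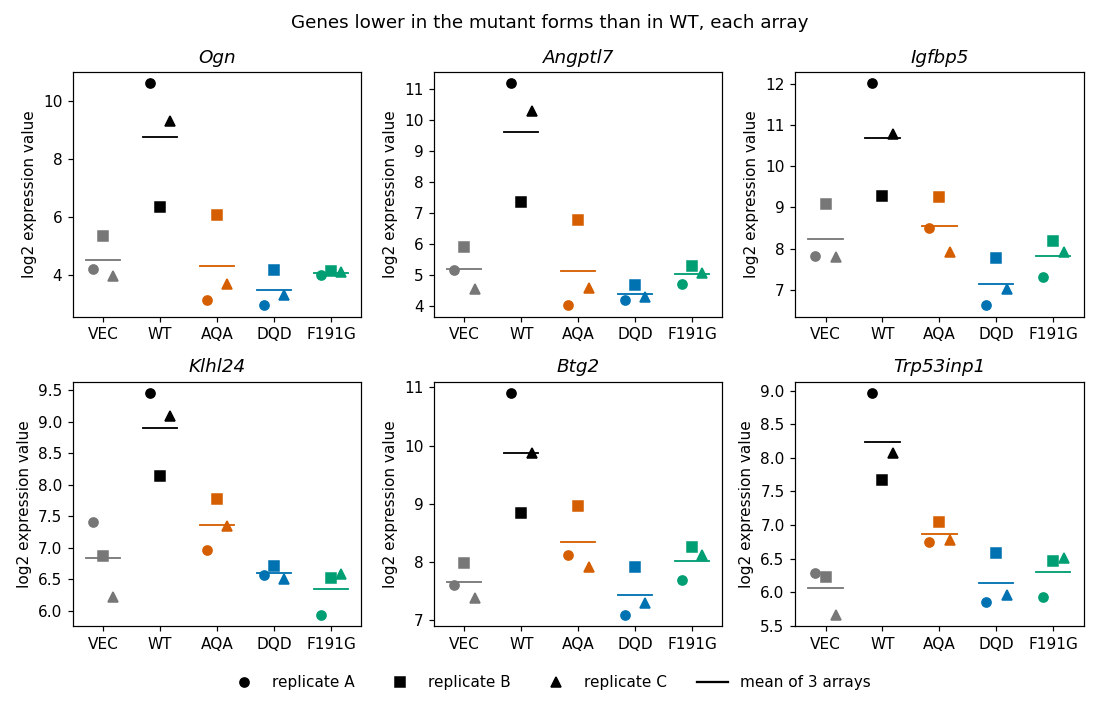
Log2 expression values of 6 genes that were lower in the mutant forms than in WT, in each of the 15 arrays; symbols give the replicate letter, bars the mean of 3 arrays. In Ogn the WT arrays lie at 6.37 to 10.62 and the 9 mutant arrays at 2.97 to 6.07, close to VEC at 3.99 to 5.37.

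The promoters of the 2 genes with the largest fall are shown because E-boxes are the sites Twist1 is known to bind. These and the other sequences are RefSeq promoters of build GRCm38.p6, from 250 bases before to 50 after the annotated start, 5′ to 3′ on the strand of the gene, with CANNTG in capitals here. Ogn lies at chr13:49607765-49608064 (+ strand) and holds 4 matches, and Angptl7 at chr4:148500413-148500712 (- strand) holds 3.
Ogn: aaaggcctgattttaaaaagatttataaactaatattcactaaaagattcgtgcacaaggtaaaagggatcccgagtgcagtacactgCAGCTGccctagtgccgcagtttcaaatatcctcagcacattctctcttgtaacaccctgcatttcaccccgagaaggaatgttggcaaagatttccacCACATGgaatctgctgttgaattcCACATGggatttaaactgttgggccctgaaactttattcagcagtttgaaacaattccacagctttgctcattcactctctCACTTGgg
Angptl7: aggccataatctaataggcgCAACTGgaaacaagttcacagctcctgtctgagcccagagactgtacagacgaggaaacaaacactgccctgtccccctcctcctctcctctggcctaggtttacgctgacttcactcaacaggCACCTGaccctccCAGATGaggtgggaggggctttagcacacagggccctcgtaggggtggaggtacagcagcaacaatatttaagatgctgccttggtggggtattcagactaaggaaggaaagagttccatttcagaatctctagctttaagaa
CANNTG reads the same on both strands in this form and occurs in 72.3% of the 32851 promoters in the table, so a match is frequent anywhere. No binding was measured.

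Other large falls involved metabolism, retinoid uptake and growth arrest. Klhl24, a ubiquitin ligase adaptor and FoxO-responsive gene, stood at 9.46, 8.14 and 9.09 in WT and at 5.93 to 7.77 (median 6.58) in the mutants, with no overlap and a difference of -2.13 (SE 0.285, adjusted p 0.00777). Stra6, the receptor for the retinol carrier, fell by 2.03 (SE 0.363, adjusted p 0.00864) from a WT range of 8.96 to 10.64 to a mutant range of 6.94 to 8.69. Its groups did not overlap either. Btg2, an antiproliferative p53 target, had WT values of 10.91, 8.85 and 9.88 and mutant values of 7.09 to 8.97 (median 7.92). One mutant array, AQA replicate B, exceeded WT replicate B, and the difference was -1.95 (SE 0.354, adjusted p 0.00877). Trp53inp1, a stress-induced p53 target, differed by -1.80 (SE 0.250, adjusted p 0.00777), from 8.97, 7.67 and 8.07 in WT to 5.86 to 7.05 in the mutants. Cyp2b10 (-2.25), a drug-metabolising cytochrome, Adh1 (-2.14), an alcohol dehydrogenase, Cdcp3 (-1.89) and Fgb (-1.80), the fibrinogen beta chain, were also among the 14 largest falls. These 4 were not called without WT replicate A (adjusted p 0.065 to 0.228), while the other 10 were. Adh1, Cdcp3 and Fgb were also not called without WT replicate C (0.0693 to 0.088) or without DQD replicate A (0.0615 to 0.0876).

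In all 14 of the largest falls WT replicate A was the highest WT array, and in 13 of them AQA replicate B was the mutant array nearest to WT. All 9 mutant arrays lay below all 3 WT arrays in 8 of the 14. The 14 differences ran from -4.80 to -1.80, and from -4.00 to -0.88 without WT replicate A. The same 14 genes differed from VEC by -0.89 to 0.70.

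What the mutants gained was led by the cell cycle. Cenpk, a kinetochore protein, measured 5.21, 6.87 and 6.53 in WT and 7.00 to 8.05 (median 7.59) in the mutants, a difference of 1.39 (SE 0.291, adjusted p 0.0108), 2.62-fold. All 9 mutant arrays lay above the WT arrays, AQA replicate B by the least. Ncapg2, a condensin subunit that compacts mitotic chromosomes, gave 6.27, 7.93 and 7.76 in WT and 8.18 to 9.14 (median 8.74) in the mutants. This difference of 1.37 (SE 0.290, adjusted p 0.0111) was 0.85 without WT replicate A (adjusted p 0.0292). Dscc1 acts in sister chromatid cohesion at the replication fork. It rose by 1.33 (SE 0.281, adjusted p 0.0110) from 4.10, 5.42 and 5.58 in WT to between 5.86 and 7.06 (median 6.33) in the mutants. Fbxo5, the inhibitor of the anaphase-promoting complex known as Emi1, had the same pooled difference as Cenpk, 1.39 (SE 0.375, adjusted p 0.0212). Its WT values were 6.06, 8.17 and 8.08 and its mutant values 8.15 to 9.38, so AQA replicate B overlapped WT, and the gene was not called without WT replicate A (adjusted p 0.066) or without DQD replicate A (0.0506).

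The other 10 of the 14 largest rises lay between 1.23 and 1.32. They were Hells and Atad5, a chromatin remodeller and a clamp unloader; Gins1 and Pole2, of the replicative helicase and polymerase; Sgo1, Smc2, Kif18a, Trip13 and Depdc1a, which act in cohesion, condensation, spindle motion, the checkpoint and mitotic progression; and Wdr76. WT replicate A was the lowest WT array in all 14, and in 13 of them AQA replicate B was the lowest mutant array. In 11 of the 14 every mutant array lay above every WT array, and 11 were called without WT replicate A, with differences over the 14 of 0.69 to 0.90. Gins1 and Trip13 were not called then (adjusted p 0.0518 and 0.054). From VEC these 14 genes differed by -0.17 to 0.29.

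**Figure D2:**
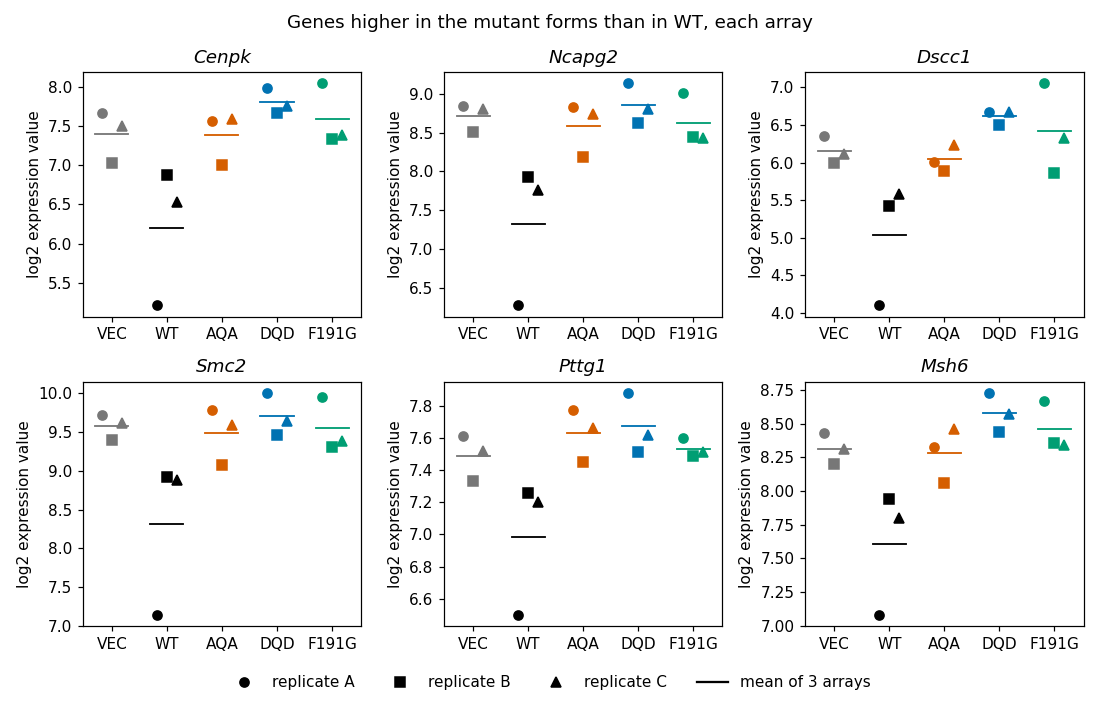
Log2 expression values of 6 cell cycle and repair genes that were higher in the mutant forms than in WT, in each of the 15 arrays; symbols give the replicate letter, bars the mean of 3 arrays. WT replicate A is the lowest array in each panel, at 5.21 for Cenpk, and in Cenpk WT replicates B and C at 6.87 and 6.53 also lie below all mutant arrays.

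All 51 measured genes of the DNA replication list were higher in the mutants than in WT, with a median difference of 0.83 against -0.05 over all genes. Among them are helicase subunits (Mcm2 to Mcm7), the sliding clamp Pcna and its loaders, polymerases and nucleotide enzymes. In 33 of the 51 all mutant arrays lay above all WT arrays, and in 33 above WT replicates B and C. Ccne2, a cyclin that starts S phase, measured 6.64, 7.68 and 7.58 in WT and 8.03 to 8.71 (median 8.42) in the mutants, with no overlap. Its difference was 1.09 (SE 0.189, adjusted p 0.00864), and 0.76 without WT replicate A (adjusted p 0.0233). Gins2 differed by 0.71 (SE 0.151) and Rfc1, the large subunit of the clamp loader, by 0.63 (SE 0.135), both without overlap. Without WT replicate A, 17 of the 51 were called, all higher, and the median was 0.45.

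Of 58 mitosis genes 57 were higher and 0 lower, with a median of 0.91. They span kinases (Cdk1, Aurka, Aurkb, Plk4), kinetochore proteins, condensins, spindle motors and the proliferation marker Mki67. In 40 the groups did not overlap, and in 40 the mutants lay above WT replicates B and C. Pttg1, the separase inhibitor securin, rose from 6.50, 7.26 and 7.20 to between 7.45 and 7.88 (median 7.60), by 0.62 (SE 0.142, adjusted p 0.0131). The kinetochore motor Cenpe had a difference of 1.0 (SE 0.232, adjusted p 0.0134). Leaving out WT replicate A, 11 of 58 were called, with a median of 0.46. In batch B alone 7 replication and 14 mitosis genes were called, and in batch A alone 0 of either. Fewer cells in the cycle and less of these RNAs per cell cannot be told apart in bulk RNA.

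As the mean of its genes, the replication list stood 1.61 below the mutant mean in WT replicate A, 0.46 below in replicate B and 0.45 below in replicate C. The mutant arrays ranged from -0.36 to 0.31 about their own mean, with AQA replicate B the lowest, and VEC from -0.09 to 0.17. The mitosis list gave -1.71, -0.42 and -0.52 in WT, and -0.37 to 0.28 in the mutants. So all 3 WT arrays lay below all mutant arrays in both lists, WT replicates B and C only just below AQA replicate B.

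**Figure D3:**
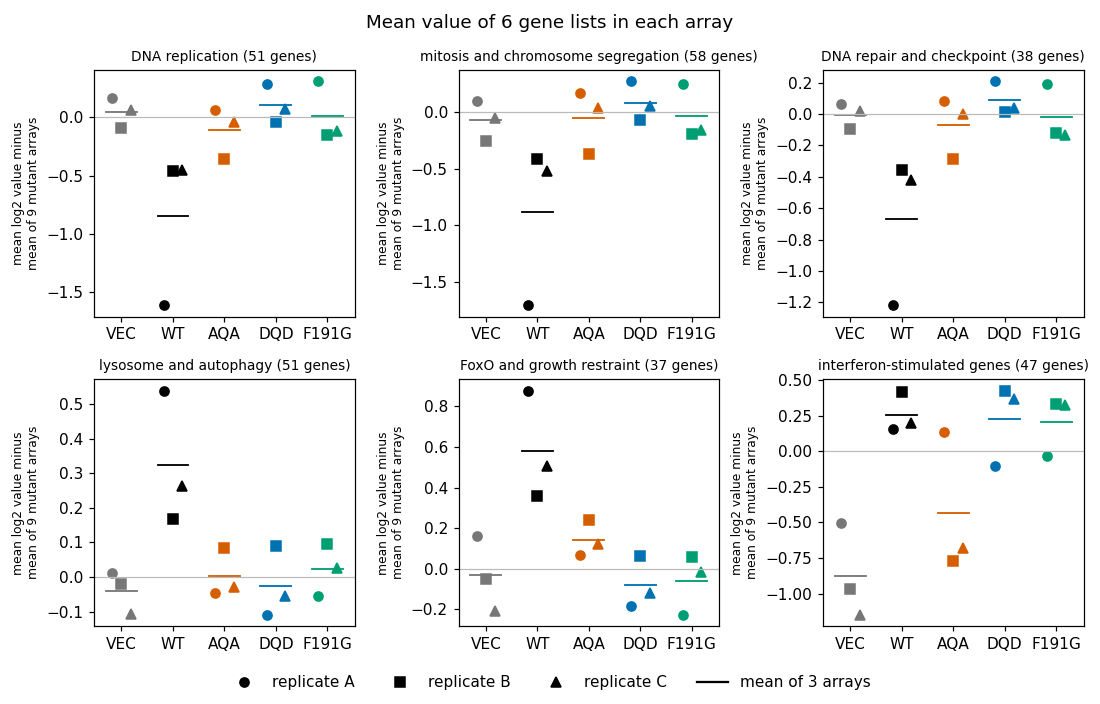
Mean log2 value of the genes of 6 lists in each array, minus the mean over the 9 mutant arrays; symbols give the replicate letter, bars the mean of 3 arrays. For DNA replication WT replicate A lies at -1.61 and WT replicates B and C at -0.46 and -0.45, below the lowest mutant array at -0.36.

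Motifs known from cell cycle promoters were counted over all members of these lists, called or not. The lists hold known cell cycle genes, so the shares do not depend on these arrays. They say nothing on why mutants and WT differ. The E2F forms TTTCCCGC, TTTGGCGC and TTTCGCGC, on either strand, occurred in 31.4% of 51 promoters of 41 replication genes and in 1.84% of all 32851 promoters. TTTGAA, the core of the cell cycle homology region bound by DREAM and B-Myb complexes, occurred in 70.9% of 55 promoters of 49 mitosis genes and in 17.9% of all. Its share of the replication promoters was 17.6%. CCAAT occurred in 69.1% of the mitosis promoters, 56.9% of the replication promoters and 37.4% of all. For the E-box CANNTG the shares were 64.7% (replication), 67.3% (mitosis) and 72.3% (all). In the promoter of Pole2 (chr12:69228141-69228440, - strand), the E2F form is in capitals, and in that of Ncapg2 (chr12:116405186-116405485, + strand) 2 E2F forms and TTTGAA are.
Pole2: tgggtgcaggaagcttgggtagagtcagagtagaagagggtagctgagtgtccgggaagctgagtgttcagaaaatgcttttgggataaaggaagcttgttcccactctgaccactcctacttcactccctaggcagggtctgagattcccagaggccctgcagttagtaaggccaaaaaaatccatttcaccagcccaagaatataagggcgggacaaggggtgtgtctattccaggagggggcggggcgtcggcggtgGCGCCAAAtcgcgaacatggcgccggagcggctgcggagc
Ncapg2: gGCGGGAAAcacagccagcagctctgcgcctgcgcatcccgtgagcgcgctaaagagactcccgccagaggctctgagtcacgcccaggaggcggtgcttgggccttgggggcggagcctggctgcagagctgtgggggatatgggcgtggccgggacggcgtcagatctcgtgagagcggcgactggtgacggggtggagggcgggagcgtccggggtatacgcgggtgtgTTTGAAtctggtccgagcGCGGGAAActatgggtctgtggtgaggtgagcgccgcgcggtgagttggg
These are matches of letters, and no factor was measured on them.

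In the list of DNA repair and checkpoint genes 30 of 38 were higher, 0 lower, with a median of 0.72. Nbn, of the complex that senses double-strand breaks, measured 7.31, 7.68 and 7.60 in WT and 7.78 to 8.22 (median 8.01) in the mutants. It rose by 0.49 (SE 0.0776, adjusted p 0.00777) with no overlap. Msh6, a mismatch repair protein, rose by 0.83 (SE 0.156), Fancm of the Fanconi pathway by 0.76 (SE 0.138) and the checkpoint kinase Atm by 0.67 (SE 0.129). All 4 were called without WT replicate A, as were 18 of the 38 (median 0.43).

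Genes of ribosome assembly, many of them known Myc targets, were higher in 39 of 52 cases and lower in 0, with a smaller median of 0.34. Ebna1bp2, a nucleolar assembly factor, stood at 7.78, 8.22 and 8.10 in WT and 8.48 to 8.81 (median 8.59) in the mutants. The groups did not overlap, and the difference was 0.56 (SE 0.0903, adjusted p 0.00777). Fbl, the methyltransferase fibrillarin, rose by 0.51 (SE 0.0969), Ddx10 by 0.48 (SE 0.0906) and Gnl3 by 0.38 (SE 0.0717). Of the 52, 8 were called without WT replicate A. Of 29 cytosolic ribosomal proteins 1, Rpl7, was called (0.20, SE 0.0566). It lost the call without WT replicate A (adjusted p 0.098), WT replicate C (0.152) or DQD replicate A (0.0644), with quantile normalization (0.0675) and with the mutants as 1 group (0.0518). Myc itself measured 10.27, 10.16 and 10.27 in WT and 9.46 to 10.65 in the mutants, a difference of -0.14 (SE 0.124, adjusted p 0.451).

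Among 26 genes of histones and chromatin assembly, 19 were higher and 4 lower, and without WT replicate A 7 and 2. Those higher included the chromatin protein Hmgb1, which rose by 0.48 (SE 0.0715, adjusted p 0.00777) from 8.09, 8.10 and 7.91 to between 8.21 and 8.77. This was 0.50 without WT replicate A, so that array did not carry it. Eed, of the Polycomb repressive complex, rose by 0.61 (SE 0.122). The linker histone genes H1f2 and H1f3 went the other way. H1f2 measured 10.15, 8.93 and 9.41 in WT and 7.65 to 8.56 (median 8.10) in the mutants, 2.74-fold lower (-1.45, SE 0.215, adjusted p 0.00777). H1f3 fell by 0.67 (SE 0.122), also with no overlap. The other members lower were H2az2 and H2bc21, named after their values were seen. Histone genes of a cluster share sequence, so array probes may not fully separate them.

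Most genes in the list of FoxO targets and growth restraint were lower. Of 37 genes in it, 24 were lower and 0 higher, with a median of -0.44, and 10 were called without WT replicate A. Pdcd4, an inhibitor of translation initiation, measured 10.03, 9.26 and 9.60 in WT and 7.51 to 8.98 (median 7.99) in the mutants. The groups did not overlap, and the difference was -1.52 (SE 0.194, adjusted p 0.00777), or -1.32 without WT replicate A (adjusted p 0.0233). By form it was -0.80 (AQA), -1.87 (DQD) and -1.89 (F191G), and the test among the forms was not passed (adjusted p 0.142). Kdm7a, a histone demethylase, fell by 1.67 (SE 0.256) from 9.30, 7.98 and 8.56 to between 5.96 and 7.97, and Ypel3, linked to senescence, by 1.28 (SE 0.191). The 9 mutant values of both lay below WT.

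Of 36 p53 targets and CDK inhibitors 12 were lower and 1 higher, with a median of -0.06, close to the -0.05 over all genes. The share lower was above the 11.4% of all genes. Besides Btg2 and Trp53inp1, Mdm2, the ubiquitin ligase of p53, fell by 0.38 (SE 0.0796, adjusted p 0.0108) with no overlap, and Rbl2, the pocket protein p130 of the DREAM complex, by 0.59 (SE 0.134). Mdm2 and Rbl2 were not called without WT replicate A (adjusted p 0.0536 and 0.0617), and 2 of the 36 were. The member that was higher was Rbl1, which encodes p107 and is named after its value was seen.

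Lysosomal and autophagy genes were lower in 27 of 51 cases and higher in 2 (Gla and Atg5, named after their values were seen), with a median of -0.32. Ctsa, the lysosomal protective protein, measured 11.28, 10.76 and 10.89 in WT and 10.23 to 10.57 (median 10.41) in the mutants. It fell by 0.60 (SE 0.0980, adjusted p 0.00824) without overlap. The protease Ctsl fell by 0.94 (SE 0.163), Naglu, which degrades heparan sulfate, by 0.63 (SE 0.110), and Wipi1, of the autophagosome, by 0.60 (SE 0.103). All 4 were called without WT replicate A, with 12 of the 51. The E-box form CACGTG, known as the core of the sites that lysosomal regulators of the TFEB family bind, occurred in 36.4% of 44 promoters of 42 lysosomal genes and in 7.15% of all. It reads the same on both strands and is a form of CANNTG. The FoxO list had it in 29.3% of 41 promoters and the replication list in 13.7%. Ctsa has 2 annotated promoters. The one shown (chr2:164833523-164833822, + strand) was taken as one that holds CACGTG, with 2 matches in capitals.
Ctsa: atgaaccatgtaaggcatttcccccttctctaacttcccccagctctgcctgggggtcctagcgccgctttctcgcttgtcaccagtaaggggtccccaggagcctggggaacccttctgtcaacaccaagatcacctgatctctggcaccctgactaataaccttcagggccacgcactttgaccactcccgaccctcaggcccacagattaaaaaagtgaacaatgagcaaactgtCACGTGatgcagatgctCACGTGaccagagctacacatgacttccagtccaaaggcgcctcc
As before, a match does not show binding, and the shares do not depend on these arrays.

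In the list for the unfolded protein response and the integrated stress response 22 of 43 genes were lower and 2 higher (Psat1 and Shmt2, named after their values were seen), with a median of -0.21. Ddit4, an inhibitor of mTOR signalling, measured 9.63, 8.84 and 9.01 in WT and 6.79 to 8.60 (median 7.56) in the mutants, a difference of -1.45 (SE 0.254, adjusted p 0.00864). No array overlapped. Dnajb9, an endoplasmic reticulum chaperone partner, fell by 0.98 (SE 0.189), Xbp1, the transcription factor of that response, by 0.67 (SE 0.129), and its activator Ern1 by 0.42 (SE 0.0780). Without WT replicate A 7 of the 43 were called, all lower, and these 4 were among them.

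Lipid synthesis and respiration moved less. Of 37 genes of cholesterol and fatty acid synthesis 13 were higher and 2 lower (median 0.19), and without WT replicate A 3 and 0. Sqle, which makes the sterol precursor squalene epoxide, rose by 0.62 (SE 0.102, adjusted p 0.00824) from 8.11, 8.48 and 8.48 to between 8.84 and 9.15. Elovl5 (0.38, SE 0.0699) and Acaca (0.38, SE 0.0708), of fatty acid elongation and synthesis, were also called with and without WT replicate A, and Acly (0.32, SE 0.0703) was called only with it. The 9 mutant arrays lay above WT in each of these 4. Of 40 oxidative phosphorylation genes 12 were higher and 1 lower (median 0.09), and without WT replicate A 2 and 0, with Ndufs1 of complex I at 0.31 (SE 0.0559) and Sdhd of complex II at 0.33 (SE 0.0624). In the Nrf2 list 7 were higher and 7 lower of 43, and in the hypoxia and glycolysis list 7 higher and 2 lower of 39. These counts were 2 and 1 for Nrf2, and 1 and 0 for hypoxia, without WT replicate A. With all arrays 11.4% of all genes were higher and 11.4% lower.

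Of 32 acute-phase and plasma protein genes 14 were lower and 0 higher (median -0.19), where 11.4% of all genes were lower. Hp, haptoglobin, fell by 2.0 (SE 0.376, adjusted p 0.00926) from 8.86, 6.67 and 7.57 to between 5.23 and 6.70, with AQA replicate B above WT replicate B. Apod, a lipocalin, fell by 0.76 (SE 0.125) and Apof, an apolipoprotein, fell by 1.85 (SE 0.363), with no overlap in either. In the same list Fgg, the fibrinogen gamma chain, fell by 1.08 (SE 0.240). Of the 32, 5 were called without WT replicate A.

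Of 19 small proteoglycans and angiopoietin-like factors 4 were lower and 0 higher, where 11.4% of all genes were lower. The 4 were Ogn, Angptl7, Omd and Angptl4. Omd, osteomodulin, lies beside Ogn in a cluster of such genes and measured 6.26, 4.81 and 5.33 in WT and 3.87 to 4.75 in the mutants. That was a difference of -1.27 (SE 0.251, adjusted p 0.00985) without overlap, though at dim levels. Angptl4 fell by 0.80 (SE 0.185) and was not called without WT replicate A (adjusted p 0.0583). The median of the 19 was -0.08, close to that of all genes, and the other 3 kept their call. Of 22 genes of insulin-like growth factor signalling 3 were lower: Igfbp5, the receptor Igf1r (-0.40, SE 0.0973) and its adaptor Irs1 (-0.45, SE 0.0802). Igf1r differed by -0.25 without WT replicate A and was not called (adjusted p 0.0766).

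Of 58 growth factors and receptor kinases 14 were lower and 2 higher, and of 49 genes of TGF-beta and bone morphogenetic protein signalling 11 and 3. Both shares lower were above the 11.4% of all genes. In these lists 5 and 2 were called without WT replicate A, all lower. With each array centred on its median, the list medians of -0.08 and -0.07 became -0.000498 and 0.0024. Vegfd, a lymphangiogenic growth factor, measured 7.23, 6.0 and 6.33 in WT and 5.06 to 5.87 (median 5.26) in the mutants. It fell by 1.18 (SE 0.216, adjusted p 0.00885) with no overlap. Fgfr3 (-0.92, SE 0.192), Pdgfc (-0.94, SE 0.213), the ligand Tgfb2 (-1.43, SE 0.317) and the co-receptor Tgfbr3 (-0.55, SE 0.101) fell too, and all 5 were called without WT replicate A. Fzd2, a Wnt receptor, fell by 0.48 (SE 0.0515, adjusted p 0.00777) from 8.77, 8.64 and 8.65 to between 8.03 and 8.40. Its WT arrays lay close together, and the difference without WT replicate A was -0.44 (adjusted p 0.0233). In all, 8 of 53 Wnt and Notch genes were lower and 1, Fzd4, higher, and 1 was called without WT replicate A. The shares lower in the Wnt and insulin-like growth factor lists were near that of all genes.

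Of 58 cytokine, chemokine and NF-kB genes 13 were lower and 2 higher, and without WT replicate A 3 and 1. Among all genes 11.4% were lower, and 2.18% without WT replicate A. Nfkb2, an NF-kB subunit, fell by 0.63 (SE 0.107, adjusted p 0.00855) and Tnfsf10, the death ligand TRAIL, by 1.44 (SE 0.283, adjusted p 0.00985). Tnfsf10 measured 7.91, 6.45 and 6.60 in WT and 4.78 to 6.04 in the mutants. Cxcl5, a neutrophil chemokine, was higher than in WT by 0.51 (SE 0.103) and lower than in VEC by 0.80 (adjusted p 0.00982).

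EMT genes themselves showed small differences. Cdh1, the epithelial cadherin, measured 5.75, 5.70 and 5.73 in WT and 5.40 to 5.69 (median 5.54) in the mutants, a difference of -0.19 (SE 0.0514, adjusted p 0.0218). The arrays did not overlap, but the level was dim, and the call was lost without WT replicate A (adjusted p 0.105), without WT replicate C (0.0725), with median centring (0.114) and with quantile normalization (0.128). Cdh2 (-0.13), Snai1 (-0.16), Snai2 (-0.11), Zeb2 (-0.01), Vim (0.03) and Fn1 (0.03) were not called (adjusted p 0.0526 to 0.926). Zeb1, a repressor of Cdh1, differed by -0.26 (SE 0.0574, adjusted p 0.0127) and lost its call without WT replicate A (adjusted p 0.0719).

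Over the EMT list 11 of 47 were lower and 1, Ccn2, higher, and without WT replicate A 3 and 0. The shares lower were above those of all genes, 11.4% and 2.18% without WT replicate A. Tcf4, an E protein partner of Twist1, fell by 0.43 (SE 0.0740, adjusted p 0.00864) from 10.62, 10.31 and 10.32 to between 9.87 and 10.09. Sox4 fell by 0.71 (SE 0.125), and both were called without WT replicate A. In the list of basic helix-loop-helix, E and Id proteins 6 of 43 were lower, Atoh8 by 0.42 (SE 0.0837) and Hand1 by 0.34 (SE 0.0751), and 1, Mitf, higher by 0.23 (SE 0.0548). Of the 43, 1 was called without WT replicate A, and Hand1 (adjusted p 0.0583) and Mitf (0.0561) were not. Mitf was also not called with the mutants as 1 group (0.138). Hoxa9 was not called (0.20, SE 0.0837, adjusted p 0.0996), and of 42 Hox and cofactor genes 4 were lower and 1 higher, none of them called without WT replicate A. The shares lower in the Hox and helix-loop-helix lists were near the 11.4% of all genes.

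Epithelial and matrix lists held few large differences. In the junction, collagen and integrin lists the share of genes lower was near the 11.4% of all genes. Among proteases and inhibitors it was above that. Of 48 junction and polarity genes 7 were lower and 2 higher, and without WT replicate A 1 and 0. Prss8, the membrane protease prostasin, was the largest, with 9.02, 7.24 and 7.80 in WT and 5.68 to 7.12 (median 6.4) in the mutants, 3.27-fold lower (-1.71, SE 0.320, adjusted p 0.00924). It did not overlap, and was called without WT replicate A (adjusted p 0.0287). Of 18 keratins 1, Krt6a, was called (0.81, SE 0.260), with differences of -0.04 (AQA), 1.32 (DQD) and 1.14 (F191G). Krt6a was not called without WT replicate A (0.55, adjusted p 0.223), without DQD replicate A (0.0897) or with the mutants as 1 group (0.186). Collagens and matrix proteins had 5 lower and 2 higher of 47, proteases and inhibitors 8 and 2 of 41, and integrins and focal adhesion 5 and 2 of 39. Of these lists 0, 3 and 1 genes were called without WT replicate A. Among these Mmp11, a stromelysin, fell by 0.53 (SE 0.0898), Serpinf1, a secreted inhibitor of angiogenesis, by 1.05 (SE 0.204), and Cav2, caveolin-2, rose by 0.58 (SE 0.0873). All 3 were called without WT replicate A and did not overlap.

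In the androgen response and luminal prostate list 6 of 34 were lower and 2 higher, where 11.4% of all genes were lower. Without WT replicate A these counts were 2 and 1. Mme, the luminal protease neprilysin, measured 11.46, 9.76 and 10.54 in WT and 8.10 to 9.84 (median 9.06) in the mutants, and it fell by 1.58 (SE 0.299, adjusted p 0.00930). One mutant array, AQA replicate B, lay above WT replicate B. Steap1, a prostate surface antigen, rose by 0.74 (SE 0.131, adjusted p 0.00864) with no overlap. Of markers of other cells 1 of 30 haematopoietic (Cd68, -0.52), 1 of 30 endothelial and fibroblast (Cd34, -0.25) and 3 of 27 neural markers (Npy, Rbfox3 and Mapt; Npy -0.45) were lower and 0 higher. These shares were near or below the 11.4% of all genes that were lower. None of these markers was called without WT replicate A (adjusted p 0.101 for Cd68, 0.0758 for Cd34 and 0.0536 for Npy). Cd34 was dim, at 5.03 to 5.22 in WT and 4.66 to 5.08 in the mutants. It was also not called without WT replicate C (0.2) or DQD replicate A (0.0558), with centring (0.0899) or with quantile normalization (0.0706). As a list mean the haematopoietic markers stood 0.21 above the mutant mean in WT replicate A, the highest of all arrays, and 0.04 and 0.08 in WT replicates B and C. Their part in the results was not tested. Of 17 circadian genes 5 were lower and 2 higher, and of 34 muscle and cytoskeletal genes 2 and 2, with 0 circadian and 1 muscle gene called without WT replicate A. The share lower was above the 11.4% of all genes in the circadian list and below it in the muscle list.

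**Figure D4:**
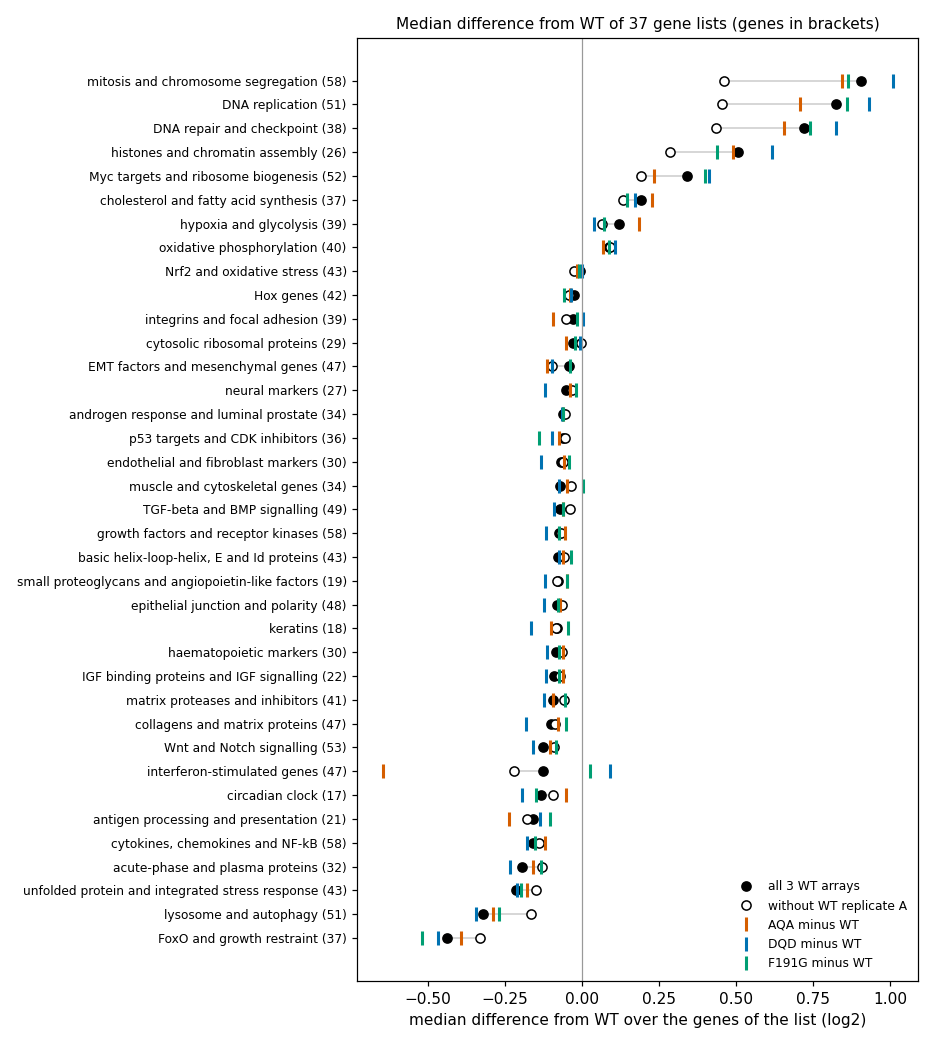
Median log2 difference from WT of 37 gene lists, for the pooled mutants with all 3 WT arrays (filled) and without WT replicate A (open), and for each form alone (coloured bars). The mitosis list lies at 0.91 and 0.46, the replication list at 0.83 and 0.45, and the FoxO list at -0.44 and -0.33.

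Interferon-stimulated genes, which cells switch on in answer to interferon, had the widest range of medians by form among the 37 lists. Of 47 genes 7 were lower in the pooled mutants and 0 higher, and 1 was called without WT replicate A. The share lower was near the 11.4% of all genes. The median difference from WT was -0.65 (AQA), 0.09 (DQD) and 0.03 (F191G). The AQA arrays did not lie together: the list mean of replicate A was 0.135 above the mutant mean, close to WT, and those of replicates B and C were -0.77 and -0.68. No member passed the test among the forms, although 30 of the 47 had an unadjusted p below 0.05 there. The list mean was 0.16, 0.41 and 0.20 above the mutant mean in WT, -0.77 to 0.43 in the mutants and -1.15 to -0.50 in VEC, so the mutant arrays spanned WT. Irf1, a transcription factor of the response, measured 10.73, 8.91 and 9.53 in WT and 7.52 to 8.82 (median 7.97) in the mutants, a difference of -1.66 (SE 0.371, adjusted p 0.0125). It was not called without WT replicate A (adjusted p 0.0563), nor were Lgals3bp (-1.45), Ifit3b (-1.62) and Uba7 (-0.30).

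The promoter of Ifit3b (chr19:34607707-34608006, + strand) shows the element of these genes, GAAA and again GAAA after any 2 bases, on either strand, in capitals. It occurred in 40.5% of 42 promoters of 35 interferon-stimulated genes, called or not, and in 3.44% of all.
Ifit3b: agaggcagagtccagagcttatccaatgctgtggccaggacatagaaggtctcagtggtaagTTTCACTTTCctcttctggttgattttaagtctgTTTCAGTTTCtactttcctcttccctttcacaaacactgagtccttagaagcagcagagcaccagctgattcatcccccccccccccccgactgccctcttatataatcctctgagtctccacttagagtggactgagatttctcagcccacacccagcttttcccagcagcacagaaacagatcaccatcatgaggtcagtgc
Ifit3b has a near-identical neighbour, Ifit3, and array probes may not separate them. Of 21 antigen presentation genes 5 were lower and 0 higher, where 11.4% of all genes were lower. None of the 5 was called without WT replicate A. H2-Q4, a class I molecule, fell by 0.36 (SE 0.0800), Cd74 by 0.27 (SE 0.0566), the chaperone Calr by 0.34 (SE 0.0829) and the peptide trimmer Erap1 by 0.39 (SE 0.0947). The first 3 did not overlap. Cd74 was dim, however, at 4.91 to 5.02 in WT and 4.51 to 4.88 in the mutants, levels that may be background. H2-Q4 was little higher, at 5.67 to 5.80 and 5.23 to 5.56.

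The 3 forms were compared with each other to see how far one pooled value stands for all. The F-test among AQA, DQD and F191G called 4 genes (0.0207%), with 2659 at an unadjusted p below 0.05. It called 0 genes when any one of 8 of the 15 arrays was left out (1908 to 2709 at an unadjusted p below 0.05). Taken alone against the same WT arrays, AQA had 140 called genes (0.726%), DQD 4735 (24.5%) and F191G 1375 (7.13%). These 3 counts share the WT arrays, and a count in one form and not in another is not a test of a difference between them. With DQD left out of the contrast but its arrays kept for the spread, 2480 genes were called, and with AQA or F191G left out 4661 and 4129. With the DQD arrays left out of the fit as well, 0 genes were called (5473 at an unadjusted p below 0.05). The medians in AQA were 0.71 for the replication list, 0.85 for the mitosis list and -0.39 for the FoxO list, against pooled values of 0.83, 0.91 and -0.44. In AQA alone 0 genes of any of these lists were called. Called in the pooled direction were 47, 48 and 21 in DQD and 9, 2 and 18 in F191G, in the same order of lists.

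The 4 genes that differed among the forms were Dcps, S1pr2, Atp6v1b2 and Folh1. Dcps, a scavenger decapping enzyme, differed from WT by 0.29 (AQA), -0.27 (DQD) and -0.20 (F191G), and the pooled difference of -0.06 was not called (adjusted p 0.405). Folh1, prostate-specific membrane antigen, was -0.91 in AQA, 0.37 in DQD and -0.01 in F191G (adjusted p among forms 0.0449). Atp6v1b2, a subunit of the lysosomal proton pump, was -0.52, 0.11 and -0.06 in the same order. S1pr2, a sphingosine-1-phosphate receptor, was -0.14, -0.52 and 0.02. In these genes the pooled value describes no single form. Myc stood at -0.57, 0.04 and 0.12 and did not pass the test among the forms (adjusted p 0.156).

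Against the empty vector the pooled mutants differed in 107 genes, 65 higher (0.337%) and 42 lower (0.218%), with 3889 at an unadjusted p below 0.05. With the replicate letter as a block beside batch 8 were called. Without VEC replicate C, the 1 VEC array in batch B, 0 were called (1767 at an unadjusted p below 0.05). Each call against VEC given here was thus lost without that array. Whether the difference of each gene rests on it was not tested. This comparison shares the mutant arrays with that against WT, so the values stand side by side only. The median differences from VEC were -0.05 for replication, 0.07 for mitosis, 0.01 for repair, 0.07 for the FoxO list and 0.05 for the lysosomal list, with 0 genes called in any of these 5. The interferon list had a median of 0.81 and 7 genes higher. Of these Ifit3 had the largest difference: it averaged 4.27 in VEC, 7.61 in the mutants and 9.29 in WT, 3.34 above VEC (adjusted p 0.00982) and different from WT by -1.68 (adjusted p 0.0185). It was named after its values were seen. Of the 18 keratins 3, Krt13, Krt15 and Krt23, were lower than in VEC, also named afterwards, with Krt15 at 8.06 in VEC, 6.33 in WT and 6.65 in the mutants. Folh1 was 1.26 above VEC (adjusted p 0.00288).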

How the data were processed

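The authors deposited log2 values of 23811 probe sets from 15 Affymetrix Mouse Gene 1.0 ST arrays, made with RMA (background correction, quantile normalization, probe summary) and examined with limma, per the submitters' processing notes, without versions. The design text names a further normalization by Twist1 expression; its form and its effect on these values are unknown. Of the probe sets 20852 carry 1 symbol; the one with the highest mean was kept for each of 19297 genes.

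Here limma 3.58.1 (R 4.3.3) fitted group and labelled batch (8 arrays in A, 7 in B) to all arrays, with 9 residual and 3.93 prior degrees of freedom and Benjamini-Hochberg adjustment. The fit was tried on simulated data with independent noise for each gene and no outlying array. That trial therefore does not cover an array such as WT replicate A. Differences are log2, with their standard error (SE); precision is limited by the few arrays. Same-letter replicates were not paired. Of 30 correlations of their deviations from the group means, 6 exceeded 0.1, and the range was -0.85 to 0.22. Arrays of a letter were thus not independent in all pairs, and some deviated in opposite directions.

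The text names 14 called genes each way by size of change (predicted, clone and olfactory receptor names passed over), up to 4 members of each of 37 lists by p, the called genes with the largest F among the forms (up to 8), and 11 fixed genes. Lists overlap, and 117 places in them were not measured. Members, lists and rules were chosen with earlier results of these data known. Alternatives changed the batch term, scaling, filter, probe sets, variance model, arrays and forms.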

Additional observations from a re-analysis of the deposited data

Results flagged for a closer look

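Among the 3 mutant forms 4 genes differed by the F-test of limma, and the pair with the largest difference is given for each. Dcps was 0.56 lower in DQD than in AQA (difference -0.56, SE 0.0626, adjusted p 0.0131). S1pr2 was 0.538 higher in F191G than in DQD (SE 0.0635, adjusted p 0.0239). Atp6v1b2 was 0.625 higher in DQD than in AQA (SE 0.0768, adjusted p 0.0179). Folh1 was 1.27 higher in DQD than in AQA (SE 0.162, adjusted p 0.0179). Among the forms 42 genes were called without WT replicate A, these 4 among them. The count was 0 without any one of AQA, DQD or F191G replicate A, DQD replicate B, or VEC, AQA, DQD or F191G replicate C (1908 to 2709 at an unadjusted p below 0.05). It was also 0 with the replicate block and batch (1990) and in batch A alone (1090).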

How the results depend on the processing

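The pooled count rests most on WT replicate A: leaving out 1 array gave 814 to 4890 genes, with 814 without WT replicate A, 2693 without DQD replicate A and 2746 without F191G replicate A. It was 0 in batch A alone, 248 in batch B alone, 0 without the DQD form and 2480 with its arrays kept for the spread. Of 147 named called genes 83 kept the call without WT replicate A, 47 in batch B alone and 0 in batch A alone or without the DQD form; none changed direction. Without WT replicate A and with each array centred, 1403 were called, 1133 higher and 270 lower. The other settings gave 3214 to 5463. Centring turned the sign of 11 of 37 list medians, all between -0.07 and 0.

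The replicate block (the letter as a fixed term) gave 3235 genes with batch and 4002 without it for the pooled contrast. Against VEC it gave 8 and 56 of 107, and among the forms 0 and 1 of 4.

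Against VEC the count was 615 with no batch term, 164 with only the arrays compared, 56 with the mutants as 1 group, 220 with centring, 503 with array weights, 1 with Twist1 as a covariate, 0 in batch A alone, 48 in batch B alone and 0 to 299 leaving out 1 array (0 without VEC replicate C, 28 or more otherwise). Among the forms it was 79 with no batch term, 123 with only the arrays compared, 2 with quantile normalization, 11 with centring, 10 without dim genes, 991 with array weights, 0 in batch A alone, 26 in batch B alone and 0 to 42 leaving out 1 array (0 for 8 of the 15).

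Sign changes occurred in differences that were not called. With centring these were Dcps (0.0138), Twist1 (0.0224) and Zeb2 (0.068), and with WT replicate A also left out Dcps (0.0295), Twist1 (0.00646), Vim (-0.0356) and Zeb2 (0.0365). In batch B alone they were Dcps (0.0348), Twist1 (0.0591), Vim (-0.0814) and Fn1 (-0.0117), in batch A alone Zeb2 (0.0208), and with array weights Vim (-0.0937). Leaving out 1 array gave -0.0933 to 0.00427 for Twist1 (turned without AQA replicate B), -0.105 to 0.109 for Vim (without WT or F191G replicate A) and -0.0333 to 0.0134 for Zeb2 (without WT replicate B or C). Without the AQA form Atp6v1b2 (0.0147), Folh1 (0.195), Zeb2 (0.0477) and Myc (0.0808) turned, and with its arrays kept Atp6v1b2 (0.0245), Folh1 (0.178), Zeb2 (0.0475) and Myc (0.0808). Dcps turned without the DQD form (0.0429; 0.0434 with its arrays kept) and without the F191G form (0.0133; 0.0101). The cause was not tested. The settings that kept a form's arrays for the spread, and centring without WT replicate A, were chosen after seeing the data.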

Other observations

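Of the clock genes counted in the comparison with WT, 3 are described here. Nr1d1, the clock repressor Rev-erb alpha, measured 10.41, 9.85 and 9.96 in WT and 9.30 to 9.77 in the mutants, a difference of -0.51 (SE 0.125, adjusted p 0.0156). Dbp, an output factor of the clock, differed by -0.62 (SE 0.135, adjusted p 0.0119), and Cry1, a clock repressor, by 0.24 (SE 0.0555, adjusted p 0.0133). All 9 mutant arrays lay beyond WT in each of the 3, and none was called without WT replicate A (adjusted p 0.0552 to 0.0856). Cry1 also lay 0.36 above VEC (adjusted p 0.0189).

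Redox genes were split. Gsr, glutathione reductase, rose by 0.47 (SE 0.0847, adjusted p 0.00877) from 9.0, 9.39 and 9.42 to between 9.59 and 9.89. Osgin1, an oxidative stress-induced growth inhibitor, fell by 0.36 (SE 0.0655, adjusted p 0.00895) from 7.15, 6.92 and 6.94 to between 6.45 and 6.82. Both kept their call without WT replicate A, and neither overlapped.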
